A study of Mus musculus with 5 samples.

Results

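Podocytes are the epithelial cells that wrap the capillaries of the glomerulus, the filter of the kidney. Their foot processes interlock, and the gap between neighbouring processes is bridged by the slit diaphragm, a cell junction built from nephrin and its partners and tied to the actin cytoskeleton. Loss of slit diaphragm proteins lets plasma protein pass into the urine, and inherited defects of several of them cause nephrotic syndrome. The transcripts described here are those of 8 podocyte genes, Nphs1, Cd2ap, Magi2, Plce1, Ptpro, Podxl, Synpo and Wt1, taken by gene symbol from a table of 54532 gene IDs. All 8 were in the table and all 8 passed the expression filter that left 16226 genes for testing. They were chosen by name, with earlier results of these data known.

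RNA was sequenced from kidney tissue of wild-type C57BL/6J male mice, an inbred laboratory strain, aged 8 weeks. The DMXAA group (2 libraries) received 10 mg/kg of DMXAA intraperitoneally each day for 3 days, and the vehicle group (3 libraries) received vehicle injections on that schedule, with tissue labelled day 3 in both groups. DMXAA binds and switches on mouse STING, which relays cytosolic DNA sensing to interferon genes. The comparison asks which kidney transcripts differ after the drug. The labels leave unsaid whether every library is another animal. The p-values thus set the group difference against the spread between these libraries, which may be technical. Levels are counts scaled by library total and the TMM method (normalised CPM), and fold changes are DMXAA over vehicle on the log2 scale, with a standard error (SE) and a p-value from the quasi-likelihood test of edgeR, adjusted by Benjamini-Hochberg over all genes tested. A gene was called at an adjusted p below 0.05. In such bulk tissue, fewer podocytes and less RNA per podocyte cannot be told apart.

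Library totals were 18176586 and 20264228 counts in DMXAA and 17667490 to 18552912 counts in vehicle. Vehicle library 1 carried adipose and urothelial transcripts: the summed CPM of 6 tested markers was 5.49 and 2.64 in DMXAA, against 153 in vehicle library 1 and 2.05 and 9.98 in vehicle libraries 2 and 3. Vehicle library 2 was low in long transcripts, described with the members below. The test called 0 of 16226 genes (0%), and 1062 genes (6.55%) had an unadjusted p below 0.05. DESeq2, run as an alternative on the 28037 genes with a count, called 54, none of them among the 8. How many of the 28037 its own filtering left without an adjusted p was not counted.

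None of the 8 podocyte genes passed the test. Their estimates ran from -0.14 for Cd2ap to 0.57 for Magi2, 5 above 0 and 3 below, with a median of 0.14 beside -0.015 over all genes tested, of which 46.9% had estimates above 0. Both DMXAA libraries lay above every vehicle library for Nphs1 and Magi2, and for none of the 8 did both lie below. Among all genes tested 13.7% lay above in this sense and 12.3% below. Groups that did not overlap in either direction made up 26% of all genes. Nphs1 was the single member with an unadjusted p below 0.05; of all genes, 3.89% passed that mark as higher and 2.65% as lower. The 95% interval of the log2 fold change, unadjusted, stayed within a 2-fold change in either direction for 7 of the 8 genes. It included 0 for 7 of them, all but Nphs1.

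**Figure D1:**
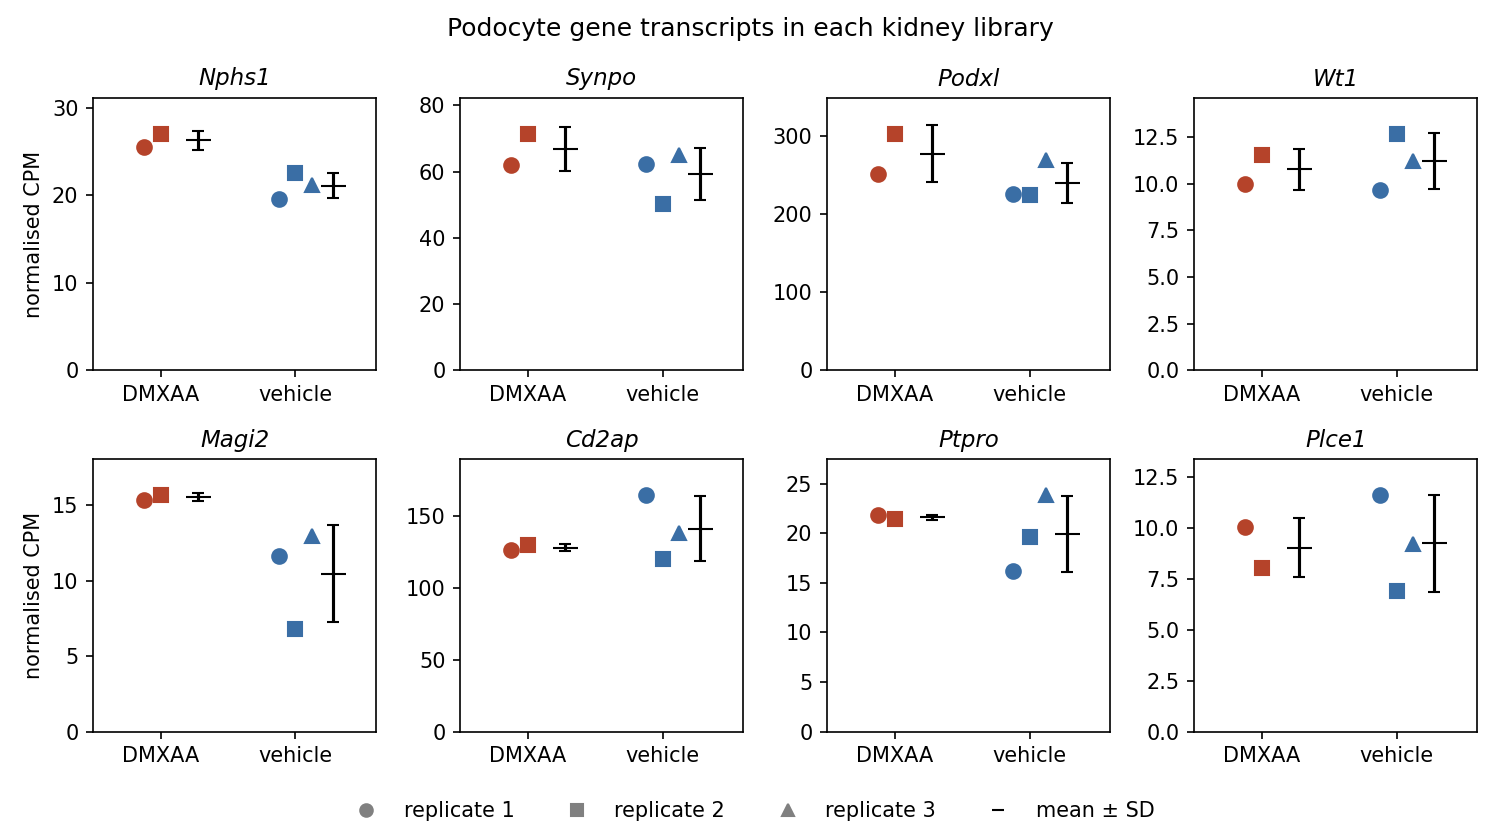
Normalised CPM (vertical axes, from 0) of the 8 podocyte genes in each library, with DMXAA on the left and vehicle on the right of each panel; points are libraries, marked by replicate, and the bar beside them is the mean ± SD (n = 2 DMXAA, n = 3 vehicle). The groups are separate for Nphs1 and Magi2 and overlap for the other genes.

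Nphs1 encodes nephrin, the transmembrane protein whose extracellular part spans the slit. It was at 25.5 and 27.1 CPM in DMXAA, against 19.6, 22.5 and 21.2 CPM in vehicle. The DMXAA pair lay close together and above all 3 vehicle libraries, and the lowest value was that of vehicle library 1. The means were 26.3 ± 1.09 CPM in DMXAA (SD, n = 2) and 21.1 ± 1.45 CPM in vehicle (SD, n = 3), a ratio of 1.25. The log2 fold change was 0.32 (SE 0.11, 95% interval 0.058 to 0.57), with an unadjusted p of 0.0232 in edgeR and an adjusted p of 0.74. These values rest on 363 to 544 counts per library. Leaving out 1 library at a time gave 0.26 to 0.37, and the unadjusted p stayed below 0.05 only without vehicle library 2 (0.0141). The gene (ENSMUSG00000006649) lies on the plus strand of mm10 chromosome 7, from 30458315 to 30487223, and 9.0% of its exon bases overlap the antisense gene Nphs1os, which had 0 counts in both DMXAA libraries and in vehicle libraries 2 and 3 and 3 counts in vehicle library 1. Another 2.8% overlap the pseudogene Rps12-ps4, with 11 and 12 counts in DMXAA and 19, 19 and 7 in vehicle.

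Nphs1 lies back to back with Kirrel2, which encodes a nephrin relative, with 625 bases between the annotated gene ends. Kirrel2 did not exceed the detection floor of 3 counts in any library, with 1 and 3 counts in DMXAA and 3, 2 and 1 counts in vehicle. The RefSeq window of 250 bases before the Nphs1 start held a match to GNGTGGGNG, letters written for a WT1-type zinc finger site and searched on both strands. This RefSeq start lies inside the GENCODE gene, downstream of the gene end used for the distance to Kirrel2. The windows of Cd2ap and Kirrel2 also held a match, those of Plce1 and Ptpro did not, and 12.7% of all 32851 RefSeq promoter windows hold one. The stretch around the Nphs1 match is shown because Nphs1 is a textbook WT1 target and Wt1 is among the 8 genes. Capitals mark the match, and the bases, from RefSeq on GRCm38.p6, plus strand, chr7:30459821-30459849, fall in the first exon of a GENCODE transcript of Nphs1.
Nphs1: gagtacctgtGAGTGGGTGagagggaggt

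Cd2ap encodes an adaptor that joins nephrin to actin; it is also made by tubule and immune cells. It was at 126 and 130 CPM in DMXAA, against 165, 120 and 138 CPM in vehicle. The DMXAA pair fell inside the vehicle range, whose top was vehicle library 1. The log2 fold change was -0.14 (SE 0.14; edgeR adjusted p = 0.84), the lowest of the 8, and it was -0.018 without vehicle library 1 and -0.24 without vehicle library 2. The gene (ENSMUSG00000061665) is on mm10 chromosome 17, minus strand, 42792951 to 42876665. Cd2ap per Nphs1 was 4.94 and 4.79 in DMXAA, against 8.39, 5.32 and 6.50 in vehicle.

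Magi2 encodes a membrane-associated scaffold that binds nephrin at the slit and is also abundant at neuronal synapses. It was at 15.4 and 15.7 CPM in DMXAA, against 11.6, 6.82 and 13.0 CPM in vehicle. Both DMXAA libraries were above the vehicle libraries, and vehicle library 2 stood well below the other two vehicle libraries. Magi2 averaged 15.5 ± 0.25 CPM in DMXAA and 10.5 ± 3.23 CPM in vehicle (SD, n = 2 and n = 3). Its log2 fold change, 0.57 (SE 0.26, 95% interval -0.057 to 1.19; edgeR adjusted p = 0.75), had the largest size of the 8. Without vehicle library 2 it was 0.34, with an SE of 0.13. Counts ran from 120 in vehicle library 2 to 316 in DMXAA library 2.

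The Magi2 gene (ENSMUSG00000040003, mm10 chromosome 5, plus strand, 19227036 to 20704792) spans 1477757 bases, and the count table pools all its transcripts. RefSeq places a start at the upstream end of this span and another inside it, and the 250 bases before them differ in composition, with a GC content of 72.0% at the upstream start and 41.2% at the internal one. Their sequences are shown because the count cannot say which start the Magi2 reads came from. The letters searched, on both strands, were GNGTGGGNG, TAATTA (an A/T-rich core of the LMX1B homeodomain type, in 4.84% of all windows), TGCTGA (16.1%) and the interferon-stimulated response element (2.98%). Capitals mark the matches found, GNGTGGGNG read on the minus strand in the upstream window and TAATTA in the internal one. The upstream window, chr5:19226796-19227035, is cut at the first base of the GENCODE exon, and the internal one is chr5:19907268-19907517, both plus strand on GRCm38.p6 from RefSeq.
Magi2 upstream start: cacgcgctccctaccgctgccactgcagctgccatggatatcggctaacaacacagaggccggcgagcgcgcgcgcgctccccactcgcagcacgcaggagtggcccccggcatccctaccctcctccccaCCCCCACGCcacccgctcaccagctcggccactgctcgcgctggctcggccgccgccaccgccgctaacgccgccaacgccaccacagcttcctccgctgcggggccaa
Magi2 internal start: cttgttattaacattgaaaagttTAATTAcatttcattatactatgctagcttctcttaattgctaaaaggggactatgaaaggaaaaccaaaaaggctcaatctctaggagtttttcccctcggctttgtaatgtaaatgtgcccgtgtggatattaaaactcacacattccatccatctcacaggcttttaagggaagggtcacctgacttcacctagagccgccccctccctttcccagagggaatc

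Plce1 encodes phospholipase C epsilon, a signalling enzyme whose gene is mutated in some human families with early nephrotic syndrome. It was at 10.0 and 8.01 CPM in DMXAA, against 11.6, 6.88 and 9.21 CPM in vehicle. Both groups overlapped, with the widest spread between vehicle libraries 1 and 2. The log2 fold change was -0.035 (SE 0.25; edgeR adjusted p = 0.98), and it turned to 0.16 without vehicle library 1 and 0.12 without DMXAA library 2. At 121 to 215 counts per library it had the smallest total count of the 8.

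Ptpro encodes GLEPP1, a receptor tyrosine phosphatase on the upper surface of foot processes. It was at 21.8 and 21.4 CPM in DMXAA, against 16.2, 19.6 and 23.9 CPM in vehicle. The DMXAA pair agreed within 0.028 on the log2 scale and lay in the middle of a vehicle range of 0.56. Its log2 fold change was 0.12 (SE 0.17; edgeR adjusted p = 0.89), and -0.017 without vehicle library 1. The RefSeq window before the Ptpro start, at chr6:137252049-137252298, plus strand, GRCm38.p6, held none of these motifs on either strand; it is shown as the contrast to Magi2, in lower case throughout.
Ptpro: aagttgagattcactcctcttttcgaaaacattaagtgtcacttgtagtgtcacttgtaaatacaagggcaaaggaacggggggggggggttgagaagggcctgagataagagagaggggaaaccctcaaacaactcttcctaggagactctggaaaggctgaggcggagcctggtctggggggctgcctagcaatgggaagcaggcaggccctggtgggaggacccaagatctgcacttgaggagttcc

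**Figure D2:**
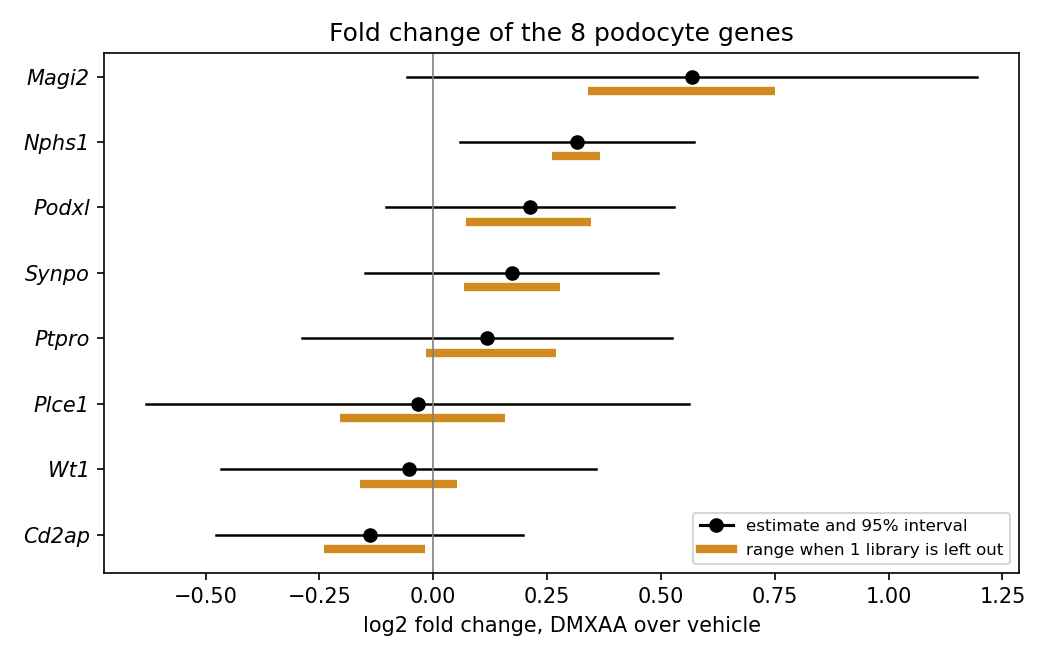
Log2 fold change of DMXAA over vehicle (horizontal axis) for the 8 podocyte genes; points and thin lines are the edgeR estimate and its unadjusted 95% interval, and thick bars are the range of estimates when 1 library is left out. The thick bars cross 0 for Ptpro, Plce1 and Wt1 and stay on one side for the other genes.

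Podxl encodes podocalyxin, the charged sialomucin that coats foot processes; vascular endothelium makes it too. It was at 252 and 303 CPM in DMXAA, against 226, 224 and 269 CPM in vehicle. DMXAA library 2 was the highest of all, while DMXAA library 1 fell below vehicle library 3. Podxl averaged 277 ± 36.5 CPM in DMXAA and 240 ± 25.4 CPM in vehicle (SD, n = 2 and n = 3), with a log2 fold change of 0.21 (SE 0.13; edgeR adjusted p = 0.78). Without DMXAA library 2 the estimate was 0.07, and without DMXAA library 1 it was 0.35. Among 12 endothelial markers, whose summed level was 805 and 837 CPM in DMXAA and 951, 573 and 779 CPM in vehicle, none was absent, and their part in the Podxl value was not tested.

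Synpo encodes synaptopodin, an actin-associated protein of differentiated foot processes. It was at 62.0 and 71.5 CPM in DMXAA, against 62.4, 50.4 and 65.0 CPM in vehicle. DMXAA library 1 sat beside vehicle libraries 1 and 3, and vehicle library 2 was the lowest. The log2 fold change was 0.17 (SE 0.14; edgeR adjusted p = 0.80), and it was 0.07 without DMXAA library 2 and 0.28 without DMXAA library 1. As with Podxl, the highest value was that of DMXAA library 2.

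Wt1 encodes the zinc finger transcription factor that maintains podocyte identity and that parietal cells of the glomerulus also make at low level. It was at 9.99 and 11.5 CPM in DMXAA, against 9.68, 12.7 and 11.2 CPM in vehicle. Vehicle libraries gave both the lowest and the highest value, and the DMXAA pair fell between them. The log2 fold change was -0.054 (SE 0.17, 95% interval -0.47 to 0.36; edgeR adjusted p = 0.95), and the estimate was 0.051 without DMXAA library 1 and 0.047 without vehicle library 2. Wt1 per Nphs1 was 0.391 and 0.427 in DMXAA, against 0.493, 0.563 and 0.527 in vehicle. Wt1 (ENSMUSG00000016458, mm10 chromosome 2, plus strand, 105126529 to 105173616) shares no exon base with another annotated gene.

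**Figure D3:**
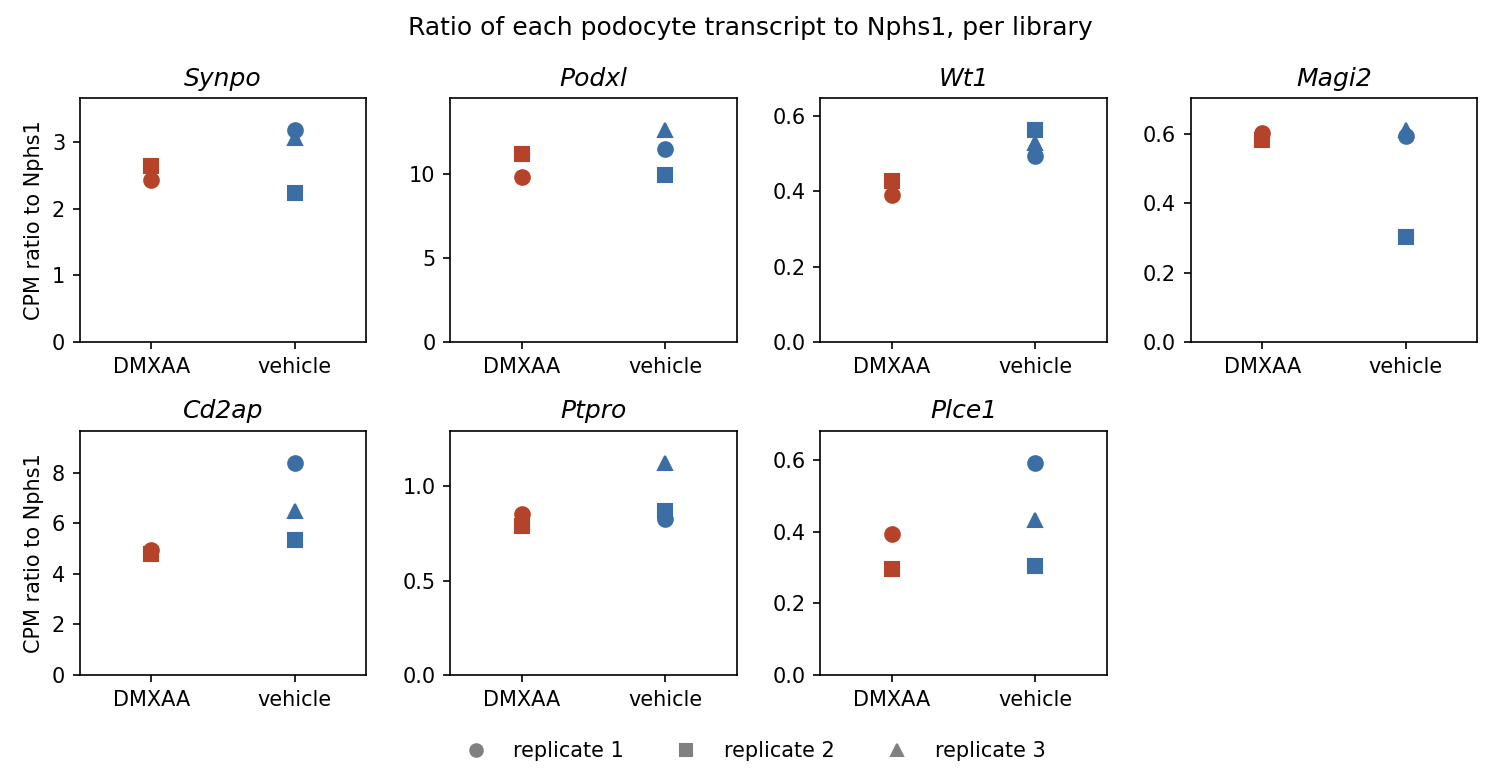
CPM of each other podocyte gene divided by the CPM of Nphs1 in the same library (vertical axes, from 0), with DMXAA libraries on the left and vehicle libraries on the right, marked by replicate. For Wt1 and Cd2ap both DMXAA ratios lie below all vehicle ratios; the other panels overlap.

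Set against Nphs1, the other 7 genes did not keep one proportion. For Wt1 and Cd2ap both DMXAA ratios were below all vehicle ratios, as they were for 54.1% of the other genes tested, and for none of the 7 were they above (1.57% of the other genes). Magi2 kept to 0.602 and 0.581 per Nphs1 in DMXAA, against 0.592, 0.303 and 0.611 in vehicle, so that the DMXAA libraries matched vehicle libraries 1 and 3 and vehicle library 2 alone stood apart. Podxl per Nphs1 was 9.86 and 11.2 in DMXAA and 11.5, 9.96 and 12.7 in vehicle. Ptpro, Synpo and Plce1 ratios overlapped likewise.

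Transcript length marked one vehicle library. The 4 members with more than 9 kb of exon, Plce1, Cd2ap, Magi2 and Synpo, were each lowest in vehicle library 2, as was 1 of the 4 shorter ones, Podxl. Across 1514 genes of that length with an average log2 CPM above 3, 49.4% were lowest in vehicle library 2, against 9.03% of 2723 genes with up to 3 kb. Vehicle library 2 lay below the mean of the other vehicle libraries by a median log2 difference of -0.11 for genes above 9 kb, while the members differed by -0.84 for Magi2, -0.58 for Plce1, -0.34 for Synpo and -0.33 for Cd2ap. Once each library's trend on exon length and GC content was removed, the 4 long members had log2 fold changes of -0.12 for Plce1 (SE 0.23), -0.21 for Cd2ap (SE 0.11), 0.50 for Magi2 (SE 0.24) and 0.13 for Synpo (SE 0.11). Nphs1 was at 0.29 (SE 0.10), and the edgeR adjusted p of these 5 genes ran from 0.73 to 0.92.

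**Figure D4:**
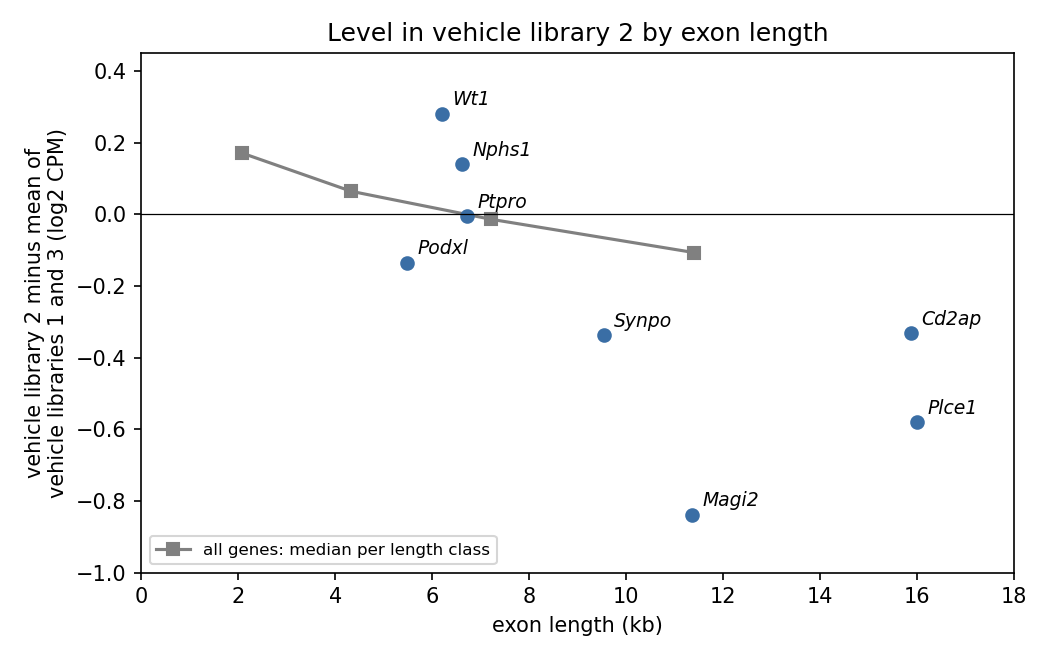
Exon length in kb (horizontal axis) against the log2 CPM of vehicle library 2 minus the mean of vehicle libraries 1 and 3 (vertical axis); labelled points are the 8 podocyte genes and squares joined by a line are medians of all genes with an average log2 CPM above 3, per length class. The line runs downward with length, and the 4 longest members lie below it.

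Per kilobase of exon, Podxl was the most abundant of the 8, at 50.6 ± 6.64 CPM per kb in DMXAA and 43.7 ± 4.62 in vehicle. The length was that of all annotated exons of a gene together. A gene whose expressed transcripts are shorter is thus understated, and the order may shift with another length. Cd2ap followed at 8.06 ± 0.15 in DMXAA and 8.88 ± 1.42 in vehicle, then Synpo at 7.0 ± 0.70 in DMXAA and 6.22 ± 0.82 in vehicle. Nphs1, at 3.97 ± 0.16 in DMXAA and 3.19 ± 0.22 in vehicle, and Ptpro, at 3.21 ± 0.04 in DMXAA and 2.96 ± 0.57 in vehicle, came next, with library values that overlapped between the genes. The transcription factor gene Wt1 reached 1.74 ± 0.18 in DMXAA and 1.81 ± 0.24 in vehicle, and Magi2 1.37 ± 0.02 in DMXAA and 0.92 ± 0.29 in vehicle. Plce1 was lowest, at 0.56 ± 0.09 in DMXAA and 0.58 ± 0.15 in vehicle, and its range overlapped that of Magi2. The order of group means was the same in both groups (SD, n = 2 and n = 3 throughout), and each other pair of neighbours was separate in all 5 libraries. For Cd2ap and Synpo the margin was narrow, with a lowest Cd2ap value of 7.55 against a highest Synpo value of 7.50.

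The libraries of a group did not treat the 8 genes alike. DMXAA library 2 held the highest value for 4 of them (Nphs1, Synpo, Podxl and Magi2) and DMXAA library 1 for none. Vehicle library 1 held the highest for 2 (Cd2ap and Plce1) and the lowest for 3 (Nphs1, Wt1 and Ptpro), and vehicle library 2 the lowest for 5. Relative to each gene's own mean, the median log2 level of the 8 was 0.05 and 0.14 in DMXAA, against -0.11, -0.17 and 0.05 in vehicle, so DMXAA library 1 did not exceed vehicle library 3. Vehicle library 3 was above DMXAA library 1 in 5 of the 8 genes.

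Other podocyte genes were read from 5 lists. Together these held 75 genes, of which 72 were tested. The lists are not confined to podocytes, and include genes that other kidney cells also make. Rhoa averaged 223 CPM in DMXAA and 233 CPM in vehicle, and Itgb1 326 and 325 CPM, beside 26.3 and 21.1 CPM for Nphs1. The part of podocytes in these counts was not tested. Of the 72, 33 had estimates above 0 (45.8%, beside 46.9% of all genes), 0 were called and the median was -0.015. An unadjusted p below 0.05 was found for 6 of the 72, all higher, beside 3.89% of all genes higher and 2.65% lower. Both DMXAA libraries were above all vehicle libraries for 10 of the 72 and below them for 7, beside 13.7% and 12.3% of all genes. The median ran from -0.05 without vehicle library 2 to 0.04 without vehicle library 1.

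Of 15 tested genes of the slit diaphragm, junction and polarity list, 5 had estimates above 0, with a median of -0.015, and none passed the test. The junction scaffold gene Cask was at 22.5 ± 2.35 CPM in DMXAA and 24.5 ± 0.26 CPM in vehicle, and the adaptor gene Nck2, whose product binds phosphorylated nephrin, at 24.1 ± 0.96 CPM in DMXAA and 21.6 ± 3.15 CPM in vehicle. All log2 fold changes of this list lay between -0.13 and 0.16, beside -0.14 to 0.57 for the 8 genes. Without DMXAA library 1 the median was 0.035, over the 16 genes that passed the filter in that fit.

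Of 19 actin and podocalyxin-linked genes, 10 lay above 0 and none was called; the list's median was 0.07. Arhgap24, a Rac-inactivating protein of podocytes, was at 281 ± 10.7 CPM in DMXAA and 229 ± 3.89 CPM in vehicle (log2 fold change 0.29, SE 0.09; edgeR adjusted p = 0.72). Anln, which encodes the actin-binding protein anillin and is also a cell division gene, was at 4.20 ± 1.2 CPM in DMXAA and 2.26 ± 0.61 CPM in vehicle, and Slc9a3r1, whose product anchors podocalyxin-type proteins to ezrin and is abundant in proximal tubule, at 387 ± 11.3 CPM in DMXAA and 322 ± 47.0 CPM in vehicle. In these 3 genes, named for their small unadjusted p, both DMXAA libraries exceeded every vehicle library. This held for 5 of the 19, and 1 lay below, beside 13.7% and 12.3% of all genes. For Slc9a3r1 the margin was narrow, with 378.7 CPM in DMXAA library 1 against 375.9 CPM in vehicle library 2. Without vehicle library 2 the median of this list was -0.008.

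Of 10 transcription factors other than Wt1, 3 had estimates above 0 and none was called, with a median of -0.07. Foxd1, a stromal and podocyte factor, was at 1.59 ± 0.42 CPM in DMXAA and 2.31 ± 0.48 CPM in vehicle. Both DMXAA libraries lay below all vehicle libraries, as they did for 12.3% of all genes. The margin was narrow, with 1.887 CPM in DMXAA library 1 against 1.892 CPM in vehicle library 1. Tead1, a partner of YAP, was at 99.4 ± 14.4 CPM in DMXAA and 89.9 ± 1.87 CPM in vehicle.

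Adhesion and basement membrane genes gave a median of -0.03 over 12 genes, 5 of them above 0 and none called. The heparan sulfate proteoglycan gene Agrn was at 198 ± 11.1 CPM in DMXAA and 170 ± 13.2 CPM in vehicle, the tetraspanin gene Cd151 at 117 ± 0.054 CPM in DMXAA and 130 ± 10.7 CPM in vehicle, and the integrin ligand gene Npnt at 220 ± 23.3 CPM in DMXAA and 199 ± 19.5 CPM in vehicle. The median of this list was 0.08 without vehicle library 1 and -0.11 without vehicle library 2.

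Among 16 other podocyte-enriched genes, 10 had estimates above 0 (46.9% of all genes) and 4 were higher with an unadjusted p below 0.05 (3.89% of all genes), with a median of 0.11 that was -0.007 without DMXAA library 2. Clic5, a chloride channel-type protein linked to ezrin in foot processes, was at 176 ± 10.9 CPM in DMXAA and 140 ± 3.09 CPM in vehicle (log2 fold change 0.33, SE 0.09; edgeR adjusted p = 0.72). Thsd7a, the gene of a podocyte surface protein that is an autoantigen in human membranous nephropathy, was at 22.3 ± 1.73 CPM in DMXAA and 13.3 ± 3.59 CPM in vehicle (log2 fold change 0.75, SE 0.23; edgeR adjusted p = 0.72). Enpep, aminopeptidase A of podocytes and of the proximal tubule brush border, was at 209 ± 34.6 CPM in DMXAA and 147 ± 6.19 CPM in vehicle. The fourth, Robo2, a guidance receptor that binds the nephrin complex, was named after its values were seen and stood at 17.1 ± 1.98 CPM in DMXAA and 11.1 ± 2.84 CPM in vehicle.

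**Figure D5:**
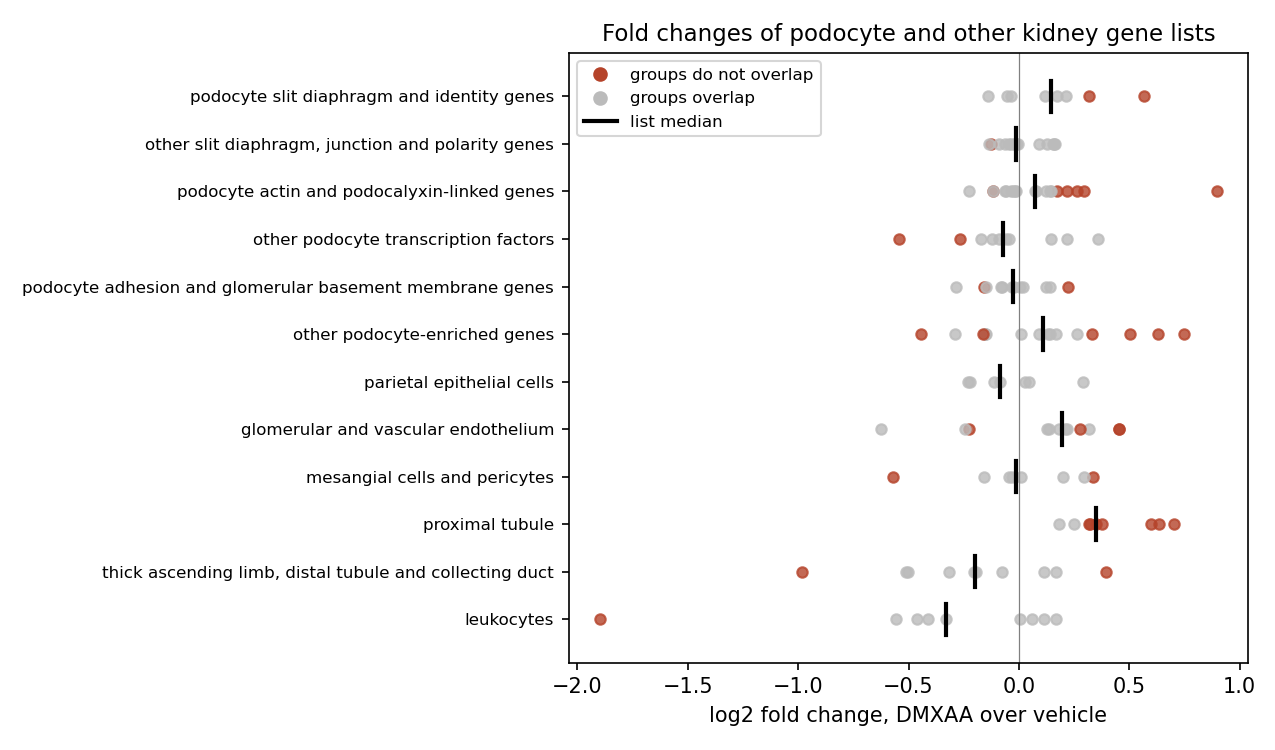
Log2 fold change of DMXAA over vehicle (horizontal axis) for each tested gene of the podocyte lists and of other kidney cell lists, 1 row per list; red points are genes whose DMXAA and vehicle libraries do not overlap, grey points genes whose libraries do, and black ticks list medians. The 8 podocyte genes have a median of 0.14, the 9 proximal tubule genes 0.35 and the other slit diaphragm genes -0.015.

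Neighbouring cell types of the nephron were read in the same fit, and edgeR called 0 genes of these lists. DESeq2 called 2 of the 9 proximal tubule genes and 1 of the 10 distal nephron genes, beside 54 of the 28037 genes with a count. Without a filter on low counts, edgeR called 1 proximal tubule gene, beside 34 of all 28037 genes. All 9 proximal tubule genes had estimates above 0 (7 with both DMXAA libraries above all vehicle libraries, beside 13.7% of all genes), with a median of 0.35 and a summed level of 14750 and 15810 CPM in DMXAA, against 12330, 13890 and 10120 CPM in vehicle. The part of this difference in the CPM of the podocyte genes was not tested. The sodium-lactate transporter gene Slc5a12 was at 351 ± 41.6 CPM in DMXAA and 215 ± 14.4 CPM in vehicle, Slc5a2 at 327 ± 50.7 CPM in DMXAA and 210 ± 23.4 CPM in vehicle, and Miox at 1492 ± 256 CPM in DMXAA and 985 ± 184 CPM in vehicle. For the endothelial list 9 of 12 estimates were above 0 and the median was 0.20, or 0.046 without vehicle library 2; its receptor kinase genes were at 58.4 ± 5.88 CPM in DMXAA and 42.7 ± 7.29 CPM in vehicle for Tie1 and at 97.7 ± 0.55 CPM in DMXAA and 80.5 ± 8.73 CPM in vehicle for Kdr, while Egfl7 was at 34.2 ± 2.42 CPM in DMXAA and 40.1 ± 0.65 CPM in vehicle.

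Mesangial and pericyte genes had a median of -0.01 over 8 genes, and parietal epithelial genes one of -0.09 over 7; without vehicle library 1 these were 0.23 and 0.05. Agtr1a, the angiotensin receptor of mesangial cells, was at 46.0 ± 4.58 CPM in DMXAA and 36.4 ± 5.93 CPM in vehicle, Gata3 at 13.8 ± 1.29 CPM in DMXAA and 20.5 ± 8.12 CPM in vehicle, and Pdgfrb at 48.3 ± 1.43 CPM in DMXAA and 42.1 ± 6.70 CPM in vehicle. Of the parietal list, Cldn2, which proximal tubule also makes, was at 768 ± 36.1 CPM in DMXAA and 627 ± 134 CPM in vehicle, Ncam1 at 3.24 ± 0.27 CPM in DMXAA and 3.78 ± 0.54 CPM in vehicle, and Lgals1 at 50.6 ± 2.07 CPM in DMXAA and 53.7 ± 5.42 CPM in vehicle. Lists of the distal nephron (median -0.20, 3 of 10 above 0) and of leukocytes (-0.33, 4 of 9) had medians below 0. Without vehicle library 3 the leukocyte median was 0.23, over the 7 genes that passed the filter in that fit. With all libraries and a filter of 1 CPM in 2 samples, which also left 7 leukocyte genes, it was 0.002. Of the distal list, the parvalbumin gene Pvalb was at 8.90 ± 0.84 CPM in DMXAA and 17.6 ± 3.30 CPM in vehicle, the intercalated cell gene Atp6v1g3 at 39.5 ± 3.19 CPM in DMXAA and 56.3 ± 15.2 CPM in vehicle, and the anion exchanger gene Slc4a1 at 62.2 ± 4.21 CPM in DMXAA and 77.4 ± 16.3 CPM in vehicle. Of the leukocyte list, the B cell gene Ms4a1 was close to the detection floor, at 0.16 ± 0.16 CPM in DMXAA and 0.61 ± 0.21 CPM in vehicle, Cd8a was at 2.89 ± 0.22 CPM in DMXAA and 3.99 ± 1.39 CPM in vehicle, and Lyz2 at 34.5 ± 9.78 CPM in DMXAA and 50.6 ± 21.2 CPM in vehicle. The adipose and urothelial list had a median of -3.59 over 6 tested genes. Without vehicle library 1 it was -0.51, over the 3 genes that passed the filter in that fit. Adipoq had no count in DMXAA and was at 36.8 CPM in vehicle library 1, Cidec was at 0.11 and 0.10 CPM in DMXAA and 31.0 CPM in that library, and Krt19 was at 1.94 and 0.85 CPM in DMXAA and 27.2 CPM in it.

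The genes whose course over the 5 libraries was nearest to that of Nphs1, by root mean square distance of centred log2 CPM among 13320 genes with an average log2 CPM above 1, were Lrp2, Prkag2, Sec31a, Xpo7 and Nosip, at distances of 0.0083 to 0.023. Lrp2, the megalin gene of the proximal tubule, was at 2297 and 2417 CPM in DMXAA, against 1754, 1992 and 1905 CPM in vehicle. Its log2 fold change was 0.32 (SE 0.14; edgeR adjusted p = 0.74). The 5 nearest genes were picked by this distance, and no member was among them. Of the members, Podxl was the nearest, at 0.13, with 13.1% of the compared genes closer. Ptpro followed at 0.18, Synpo and Wt1 at 0.19 and Cd2ap at 0.30. Plce1 was at 0.36 and Magi2 at 0.39, with 85.9% of the compared genes closer than Magi2. Counting error in the library with the fewest counts was 5.2% for Nphs1, 1.6% for Podxl, 2.2% for Cd2ap and 9.1% for Magi2 and Plce1. Its part in the distances was not tested.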

How the data were processed

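Kidney RNA of 2 DMXAA and 3 vehicle samples was measured by RNA-seq. The authors deposited unnormalised read counts per Ensembl gene ID in a single table. HISAT2, Subread, featureCounts, DESeq2 1.16.1 and build mm10 appear in the submitters' processing notes, without roles. The strand setting, the annotation and the treatment of multiply matching reads were not given in the sources used here, so reads of overlapping genes cannot be told apart. Per the labels' protocols, RNA was extracted with Trizol; a TruSeq and a NEBNext kit are both named. Columns CO1 to CO3 were read as vehicle and XA1 and XA2 as DMXAA, by name and replicate number.

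Symbols, coordinates, exon lengths and overlaps came from GENCODE M21 on the same assembly, which named 99.9% of the IDs. Counts were tested in R 4.3.3 with edgeR 4.0.16 (TMM scaling, filterByExpr, quasi-likelihood F test, two-sided, group as the only term, all 5 libraries). SE was the estimate divided by the square root of F, and intervals used its degrees of freedom. The procedure was tested on simulated counts of 15942 genes. Every gene was given the same spread between libraries, a coefficient of variation of 19% beyond counting error. Changed genes had an average log2 CPM above 1. The procedure called 56 of 100 genes with a true log2 change of 1 and 100 of 100 with one of 2. It also called 5 unchanged genes. True 2-fold changes were thus often missed in the simulation. In the data the spread differed between genes, so these shares need not hold for a single gene. A gene with no count could still be at 0.148 to 0.170 CPM (3 counts) by counting error alone. Libraries all differed beyond sampling noise, with a chi-square of 7.35 to 38.5 for each degree of freedom.

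Promoter windows are RefSeq's, 250 bases before a start; 5 of the 8 members had 6 windows in the table, 2 of them of Magi2, and Podxl, Synpo and Wt1 are named only. The text names all members, Kirrel2, the 3 genes of each other list with the smallest unadjusted p, and the 5 genes nearest to Nphs1; some listed genes are not reported here. Members and lists were chosen with earlier results of these data known. Alternatives were DESeq2 1.42.0, other scalings and filters, robust and bias-adjusted fits, length and GC offsets, a replicate block, and each library left out in turn.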

Additional observations from a re-analysis of the deposited data

How the results depend on the processing

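No member was called under any of the 17 alternatives. The count of genes called over the whole table was 0 in the main test, 54 with DESeq2, 34 without a filter on low counts, and 0 to 2 when 1 library was left out. The median log2 fold change of the 8 members, 0.14, was 0.09 to 0.26 when 1 library was left out, lowest without vehicle library 2 and highest without vehicle library 3, and 0.10 with length and GC offsets. Other scalings (RLE, upper quartile, totals alone, and library sizes without the most abundant and mitochondrial genes) left it at 0.12 to 0.14 and turned no member's sign. Of 136 single-gene estimates under alternatives, 130 kept their direction and 6 did not: Plce1 was 4e-04 with the replicate block, 0.12 without DMXAA library 2 and 0.16 without vehicle library 1, Ptpro was -0.017 without vehicle library 1, and Wt1 was 0.051 without DMXAA library 1 and 0.047 without vehicle library 2. Over all leave-one-out fits Plce1 ran from -0.21 to 0.16, Ptpro from -0.017 to 0.27 and Wt1 from -0.16 to 0.051. The cause was not tested. The labels do not say whether same-numbered libraries belong together. Their deviations from the group means correlated at 0.037 and 0.015 across 10430 genes. With 2 DMXAA libraries the deviations of one mirror those of the other, so these correlations cannot decide whether the numbers mark pairs. With the replicate number as a block, which drops the weight of vehicle library 3, the members' median was 0.26, 4 genes of the table were called, 2 with length and GC offsets added, and none of these was a member.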

Other observations

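Slit diaphragm and foot process genes that were too rare to be tested had these counts. Trpc6, a cation channel of the slit diaphragm complex, had 4 and 6 counts in DMXAA, against 6, 5 and 5 in vehicle. Kirrel3, a nephrin-like adhesion gene, had 6 and 11 counts in DMXAA, against 42, 3 and 6 in vehicle, so that vehicle library 1 held most of them. That library was also the one with adipose and urothelial transcripts; whether these account for its Kirrel3 counts was not tested.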
